A study of Drosophila melanogaster with 3 samples.

Results

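The genes described here encode nuclear subunits of the mitochondrial oxidative phosphorylation complexes. They are the annotated genes of Drosophila melanogaster whose symbols begin with ND- (complex I), UQCR (complex III), COX and a digit (complex IV) or ATPsyn (complex V). The rule found 80 genes among the 18164 annotated on the 6 chromosome arms, all 80 of them protein-coding. Complex I accounts for 40, complex III for 9, complex IV for 16 and complex V for 15. Of the 80, 17 are paralogs whose symbol is that of another of these genes with an added L, and the other 63 are called main forms. By this naming, 4 further symbols ending in L (ATPsynepsilonL, COX6AL, COX6AL2 and COX6CL) count as main forms, because their partner genes carry other names.

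The binding data are ChIP-seq peak lists for CG17361, tagged with enhanced GFP in transgenic flies and precipitated from whole embryos aged 0 to 24 h with an antibody against GFP. There is 1 group, of 3 biological replicates, and all of them carry the tagged protein, so no untreated or untagged sample enters a comparison here. Whole embryos mix all embryonic tissues over the whole of embryogenesis, and the labels do not say whether the replicates came from separate embryo collections, so their spread may be technical. The lists held 5942, 3797 and 5576 peaks for replicates 1, 2 and 3, and a series-level list that the authors named conservative held 7804. It keeps peaks by a comparison of replicates 1 and 3, but is listed as derived from the alignments of all 3 replicates. Its signals and summits are therefore not those of replicates 1 and 3 alone.

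Oxidative phosphorylation makes ATP from the electrons of NADH and succinate. Complex I takes electrons from NADH, complex III passes them from ubiquinol to cytochrome c, complex IV reduces oxygen with them, and complex V, the ATP synthase, uses the proton gradient that the pumping complexes build. Most subunits are encoded in the nucleus and must be made in balance with the few that mitochondrial DNA encodes, and in flies many subunit genes have a second copy that is expressed mainly in the testis.

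A gene was called bound when a peak summit lay within 500 bp of one of its transcription start sites (TSSs). By this measure 26 of the 80 genes (32.5%) were bound in the conservative list, where 22.3% of all genes and 26.4% of protein-coding genes were bound. In the replicates' own lists 19, 14 and 20 of the 80 genes were bound, or 22.1% ± 4.02 (SD, n = 3). The same lists called 23.2%, 16.2% and 21.8% of all protein-coding genes for replicates 1, 2 and 3. The oxidative phosphorylation genes stood 0.519, 1.30 and 3.18 percentage points above the other protein-coding genes, a mean of 1.67 ± 1.37 (SD, n = 3). That gap is close to its own spread (two-sided exact sign-flip permutation test over replicates, n = 3, p = 0.25, the smallest p that 3 replicates can give). In the conservative list the gap was 6.10 points. Averaged over the replicates' own lists, the gap turned negative at a stricter IDR of 0.001 (-1.90 points). It did so too with a TSS limit of 1000 bp (-0.185 points). In the conservative list those settings gave 17 and 29 of the 80 genes, beside 19.3% and 29.8% of protein-coding genes. In conservative peaks found in all 3 replicates the gap was -2.65 points. The series-level list that compares replicates 2 and 3 had 13 of the 80 genes bound, beside 16.2% of protein-coding genes. That comparing replicates 1 and 2 had 15, beside 18.7%.

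The main forms and the paralogs differed by more than the replicates did. Among main forms, 25 of 63 (39.7%) were bound in the conservative list, and in the replicates' own lists 27.5% ± 4.58 (SD, n = 3) were bound. Of the paralogs, 1 of 17 (5.88%) was bound in the conservative list, with 1.96% ± 3.40 (SD, n = 3) in the replicates. The difference was 30.2, 22.2 and 24.3 percentage points in replicates 1, 2 and 3, a mean of 25.6 ± 4.12 (SD, n = 3; two-sided exact sign-flip permutation test, p = 0.25, the smallest possible). Main forms and paralogs also differ in arrangement, as 36 and 2 of them have an opposite-strand TSS within 500 bp upstream (head-to-head). Of the 27 main forms without one, 6.17% ± 4.28 (SD, n = 3) were bound in the replicates. Over all 42 such genes, paralogs included, the share was 4.76% ± 4.12. Whether main forms and paralogs of like arrangement differ was not tested. The main forms also lay 6.93, 6.02 and 8.34 points above other protein-coding genes, a mean of 7.10 ± 1.17 (SD, n = 3; same exact test, p = 0.25). This comparison mixes arrangements. With a head-to-head TSS, 43.5% ± 6.99 of main forms and 37.7% ± 6.32 of other genes were bound in the replicates (SD, n = 3). Without one the order reversed, at 6.17% ± 4.28 against 13.2% ± 2.65 (SD, n = 3). In the conservative list the shares without one were 22.2% and 18.3%.

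**Figure D1:**
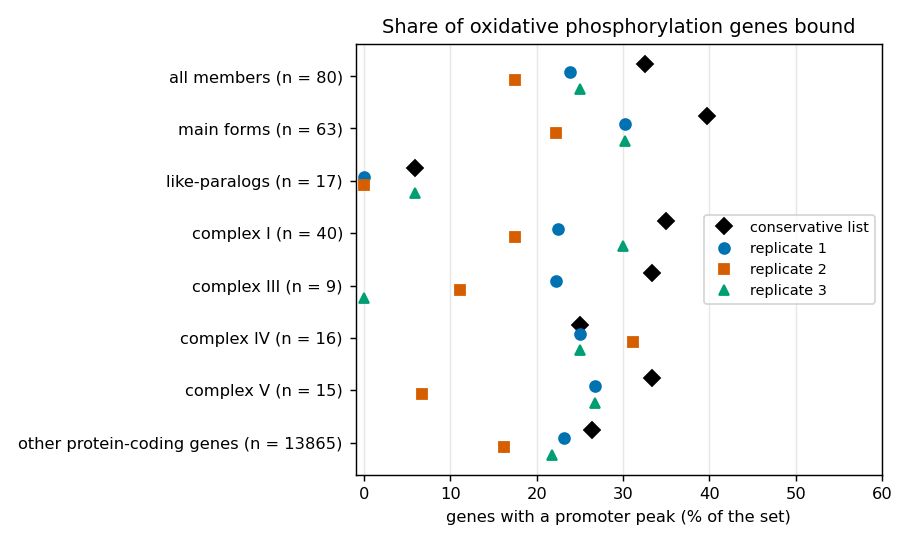
Percent of genes with a peak summit within 500 bp of a TSS (x axis) for the 80 genes, their main forms and paralogs, the 4 complexes and all other protein-coding genes (y axis, with the number of genes). Black diamonds are the conservative list and coloured symbols are replicates 1, 2 and 3; the main forms lie to the right of the other protein-coding genes in every list, and the paralogs to the left.

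Complex I, the entry point for electrons from NADH, had 14 of 40 genes bound in the conservative list (35.0%). The replicates' own lists held 9, 7 and 12 of them, or 23.3% ± 6.29 (SD, n = 3). Peak signals are the authors' scores and are compared only within a list. ND-MWFE, an accessory subunit of the membrane arm, had the highest signal of the 80 genes in the conservative list, 586, and 210, 187 and 198 in replicates 1, 2 and 3. ND-42, an accessory subunit on the matrix side, followed with 565, and 254, 130 and 181 in the replicates, above ND-MWFE in replicate 1. ND-ASHI, an accessory subunit of the membrane arm, scored 520, and 165, 153 and 194 in the replicates. These 3 genes stood at percentiles 93.0, 92.3 and 90.4 of the signals in the conservative list, and all 3 were high in every replicate.

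ND-23, a core subunit that carries iron-sulfur clusters, scored 442 in the conservative list. Its replicate values were 189, 86.3 and 159, and the lowest, in replicate 2, was at percentile 50 of that list against 85.9 in replicate 1. ND-SGDH, an accessory subunit of the membrane arm, scored 435, with 173, 137 and 124 in the replicates. ND-MNLL, another small membrane-arm subunit, scored 239, with 82.8, 59.2 and 89.6. ND-MNLL stood lower in its lists than the other 5 complex I genes bound in every list, between percentiles 16.7 and 31.0 of the replicates' lists.

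The summits of these genes lay between the gene and an opposite-strand neighbour, in sequence of lower GC content than windows 250 bp away. The bases 50 to each side of the conservative summit are shown for the 5 complex I genes bound in every list for which sequence is printed, read from the release 6 (dm6) genome of RefSeq on the strand of the gene, with the longest uninterrupted run of A and T in capitals.
ND-42, chr3R:22027483-22027583, plus strand: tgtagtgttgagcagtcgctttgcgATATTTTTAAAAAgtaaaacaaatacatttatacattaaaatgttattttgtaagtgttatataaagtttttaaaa
ND-ASHI, chrX:6679316-6679416, minus strand: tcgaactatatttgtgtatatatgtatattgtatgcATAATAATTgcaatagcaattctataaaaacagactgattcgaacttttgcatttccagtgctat
ND-23, chr3R:15837215-15837315, minus strand: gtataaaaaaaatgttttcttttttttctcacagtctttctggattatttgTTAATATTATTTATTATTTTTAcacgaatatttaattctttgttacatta
ND-SGDH, chr3L:12138617-12138717, minus strand: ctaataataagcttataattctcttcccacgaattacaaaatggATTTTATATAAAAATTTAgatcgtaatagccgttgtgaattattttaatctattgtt
ND-MNLL, chrX:7893809-7893909, minus strand: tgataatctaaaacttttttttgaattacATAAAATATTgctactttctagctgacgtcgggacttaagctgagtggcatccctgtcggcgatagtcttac
The capital run was 22 bases long at ND-23 and 18 at ND-SGDH, and 13, 9 and 10 at ND-42, ND-ASHI and ND-MNLL. GC content of the window was lowest at ND-23, 17.8%, and highest at ND-MNLL, 37.6%. The mean over all promoter peaks of the conservative list was 33.1%, so ND-MNLL lay above it.

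The 7 core subunits of complex I, which hold its flavin and iron-sulfur clusters and its quinone site, had 4 bound members. Besides ND-23 these were ND-24 and ND-51, which form the NADH-oxidising end of the complex, and ND-49, at the quinone site. ND-24 scored 405 in the conservative list, 154 in replicate 1 and 146 in replicate 3. For ND-51 the scores were 376, and 120 and 157 in replicates 2 and 3. ND-49 scored 251, with 105 in replicate 1 and 82.9 in replicate 3. The replicates held 3, 2 and 5 of the 7, or 47.6% ± 21.8 (SD, n = 3), against 22.2% ± 3.70 of the 27 accessory main forms. The difference of 25.4 points had a spread of 18.2 (SD, n = 3; two-sided exact sign-flip permutation test, p = 0.25, the smallest possible). With 7 genes, 1 gene moves the core share by 14.3 points.

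The remaining bound complex I genes were accessory subunits with weaker peaks. ND-B17.2 scored 194 and ND-AGGG 185, ND-B22 scored 170, ND-39 scored 153 and ND-13A 130. Each was found in the own list of at most 1 replicate: ND-B17.2 in replicate 1 at 91.6, and ND-B22 and ND-13A in replicate 3 at 85.3 and 80.1. ND-39 and ND-AGGG were in none of the 3. A further core subunit, ND-30, had a peak in replicate 3 alone, at 108, and none in the conservative list.

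Complex III, the cytochrome bc1 complex, had 3 of 9 genes bound in the conservative list (33.3%), and 2, 1 and 0 in replicates 1, 2 and 3. All 3 are small accessory subunits. UQCR-6.4 scored 193, and 93.3 in replicate 1. UQCR-11, the hinge protein subunit, scored 191, with 72.9 and 69.2 in replicates 1 and 2. UQCR-Q scored 115, the lowest signal of the 26 bound genes, and had no peak in any replicate's own list. The core subunits UQCR-C1 and UQCR-C2 were bound in none of these lists. No complex III gene was bound in every replicate.

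Complex IV, cytochrome c oxidase, had 4 of 16 genes bound in the conservative list (25.0%). Its replicate counts, 4, 5 and 4, gave 27.1% ± 3.61 (SD, n = 3), the smallest spread of the 4 complexes. COX5A scored 387 in the conservative list and 155, 81.0 and 144 in replicates 1, 2 and 3. COX7B scored 296, with 117 and 69.7 in replicates 1 and 2 and no peak in replicate 3. COX5B scored 258, with 98.6, 60.5 and 100 in the replicates. COX5A and COX5B encode small nuclear subunits around the catalytic core, which mitochondrial DNA encodes. COX4L, the paralog of COX4, scored 161 and was found in replicate 3 alone at 83.6.

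COX8, a small membrane subunit of complex IV, was bound in all 3 replicates but not in the conservative list. Its signals were 202, 72.5 and 161 in replicates 1, 2 and 3, at percentiles 88.4, 34.4 and 77.2 of those lists. Its summits lay 145, 147 and 150 bp upstream of the TSS, within 5 bp of each other. No peak of the ranked list from which the conservative list was drawn lay within 500 bp of this TSS. Among the 1838 protein-coding genes bound in all 3 replicates, 33 were not bound in the conservative list. COX8 was the only one of the 80 genes among these 33. Of the 33, 26 had no peak of that ranked list within 500 bp. COX6B was bound in replicate 2 alone, at 55.1.

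The summit windows of the complex IV genes bound in all replicates are shown in the same way. That of COX5A is cut to the 83 bases outside annotated exons, and that of COX8 is centred on the replicate 1 summit.
COX5A, chr3R:11819465-11819547, plus strand: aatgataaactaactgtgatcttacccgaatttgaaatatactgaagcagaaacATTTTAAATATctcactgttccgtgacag
COX5B, chr2L:6557590-6557690, plus strand: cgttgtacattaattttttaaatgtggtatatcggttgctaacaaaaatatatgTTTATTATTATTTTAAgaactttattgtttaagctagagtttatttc
COX8, chr3L:21539542-21539642, minus strand: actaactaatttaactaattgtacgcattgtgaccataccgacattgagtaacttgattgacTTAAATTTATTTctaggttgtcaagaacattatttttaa
The longest A/T runs were 11, 16 and 12 bases at COX5A, COX5B and COX8.

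Complex V, the ATP synthase, had 5 of 15 genes bound in the conservative list (33.3%), and 4, 1 and 4 in the replicates, or 20.0% ± 11.5 (SD, n = 3). ATPsynE, a small subunit of the membrane domain, was the only one bound in every list. It scored 309 in the conservative list and 140, 76.0 and 112 in replicates 1, 2 and 3. ATPsynG, a neighbouring membrane subunit, scored 201, with 90.4 in replicate 1 and 67.9 in replicate 3. The other 3 encode parts of the peripheral stalk, which holds the catalytic head still against the rotor. ATPsynCF6, coupling factor 6, scored 209, ATPsynB 153 and ATPsynD 128. Of these, ATPsynB had a peak in a replicate's own list, replicate 3, at 81.0.

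Another 3 complex V genes were bound in 1 replicate each. ATPsynbeta, the catalytic subunit, was bound in replicate 1 alone at 68.9, with the summit 416 bp upstream. ATPsyngamma, the central shaft, was bound in replicate 1 alone at 69.7, and ATPsynF, a membrane subunit, in replicate 3 alone at 73.1. None of these 3 was bound in the conservative list. The alpha subunit of the catalytic head is encoded by blw, which falls outside the symbol pattern and was bound in all 4 lists, at 489 in the conservative list. The ATPsynE window is printed because its replicate summits were the most spread of the 10 genes bound in all replicates, over 151 bp.
ATPsynE, chr3R:14326827-14326927, plus strand: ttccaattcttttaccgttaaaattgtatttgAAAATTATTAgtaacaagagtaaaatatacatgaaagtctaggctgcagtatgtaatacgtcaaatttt

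**Figure D2:**
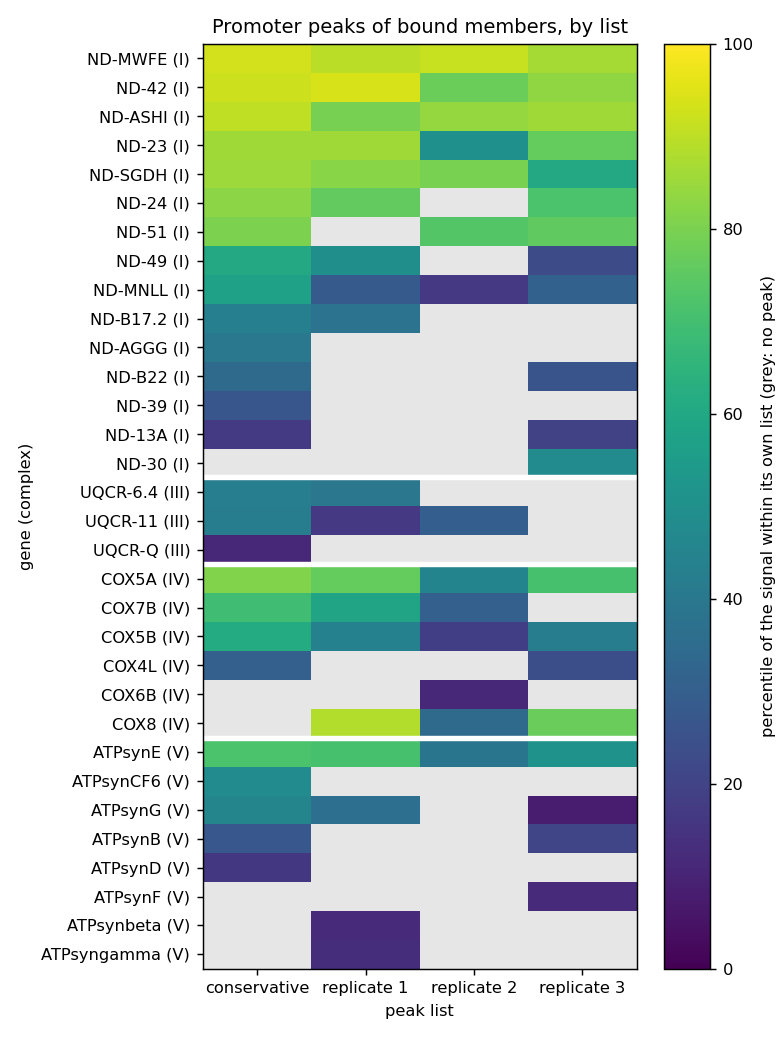
Percentile of each gene's peak signal within its own list (colour; grey where no peak was called) for the 32 genes bound in at least 1 of the 4 lists (y axis, with the complex) in the conservative list and replicates 1, 2 and 3 (x axis). ND-MWFE, ND-42 and ND-ASHI are high in all lists, and all 13 genes in the lower part of the conservative list, below percentile 50, lack a peak in at least 1 replicate.

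Across all 4 complexes, 10 of the 80 genes (12.5%) were bound in all 3 replicates, against 13.2% of other protein-coding genes. Of the 26 genes bound in the conservative list, 9 (34.6%) were bound in every replicate, where 49.1% of the other bound protein-coding genes were. A further 5 were bound in no replicate's own list (ND-39, ND-AGGG, UQCR-Q, ATPsynCF6 and ATPsynD). The number of genes bound in none of the 4 lists was 48.

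The signals were close to those of all promoter peaks. The median signal of the 26 genes in the conservative list was 224, against 226 for all 3603 promoter peaks, and 13 of the 26 lay above that promoter median. The ratio of the medians was 1.05, 0.817 and 0.968 in the lists of replicates 1, 2 and 3, a mean of 0.945 ± 0.118 (SD, n = 3). The strongest of these genes, ND-MWFE, was at rank 549 of the 7804 peaks, whose highest signal was 1310.

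The paralogs can be read gene by gene against their main forms. For 9 of the 17 paralogs the main form was bound in the conservative list and the paralog in no list. They were ND-24L, ND-49L, ND-51L1, ND-51L2, UQCR-11L, UQCR-6.4L, COX5BL, ATPsynCF6L and ATPsynGL. The reverse was seen for 1 of the 17, COX4L, with a summit 482 bp downstream of its TSS, while COX4 was bound in no list. COX7AL2 had a ranked series-level peak with a signal of 297 and an IDR (irreproducible discovery rate, the authors' measure of whether a peak ranks alike in a pair of lists) of 4.89e-05, but that peak is not in the conservative list, and the reason is not given in the sources used here.

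Most summits lay just upstream of a start site of their gene. In the conservative list 23 of 26 summits (88.5%) were upstream of the nearest TSS of the gene, against 87.9% over all bound protein-coding genes, with a median offset of -83.5 bp against -157 bp. Exceptions were ND-B17.2, at +32 bp, ND-24, at +104 bp, and COX4L, at +482 bp. The nearest TSS can be an internal one. At ND-39, ND-49, COX5A, UQCR-Q, ND-13A and ND-B22 the summit was upstream of the nearest TSS but inside the annotated gene. For the 10 genes bound in all 3 replicates, the replicate summits spanned a median of 51.0 bp, from 5 bp at COX8 to 151 bp at ATPsynE, where 1828 other genes gave a median of 47.0 bp.

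Many of these peaks lay between a pair of genes that start back to back. For 19 of the 26 bound genes (73.1%) the summit was also within 500 bp of another gene's TSS, where 59.4% of other bound protein-coding genes had such a peak. At ND-42 the summit was 176 bp from the ND-42 TSS and 53 bp from that of Cchl, which encodes cytochrome c heme lyase. At ND-ASHI it was 248 bp from the ND-ASHI TSS and 274 bp from that of Fum1, the fumarase of the citric acid cycle. ATPsynD shares its peak with mRpL55, a mitochondrial ribosomal protein gene, at 31 and 64 bp. A shared peak cannot be assigned to either gene of such a pair from these lists.

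The other neighbours belong to many processes. ND-MWFE shares its peak with TppII, a peptidase gene, whose TSS was the nearer at 28 bp. ND-23 does so with spn-E, an RNA helicase gene of the piRNA pathway, COX5A with glo, which encodes an RNA-binding protein, and COX5B with IFT52, an intraflagellar transport gene. COX7B lies by Sec3, of the exocyst, ATPsynCF6 by Sec13, of the COPII coat, ATPsynG by SCAR and ND-B17.2 by Arpc5, both of actin assembly. The remaining pairs were ND-24 with corolla, ND-39 with ZnT77C, ND-51 with CG13994, ND-SGDH with RhoGAP68F and ATPsynE with Afti. ND-MNLL lies by p115 and by CG45089, which starts at the same base on the same strand, UQCR-6.4 by CG42239 and Rab4, and UQCR-Q by CG46525.

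**Figure D3:**
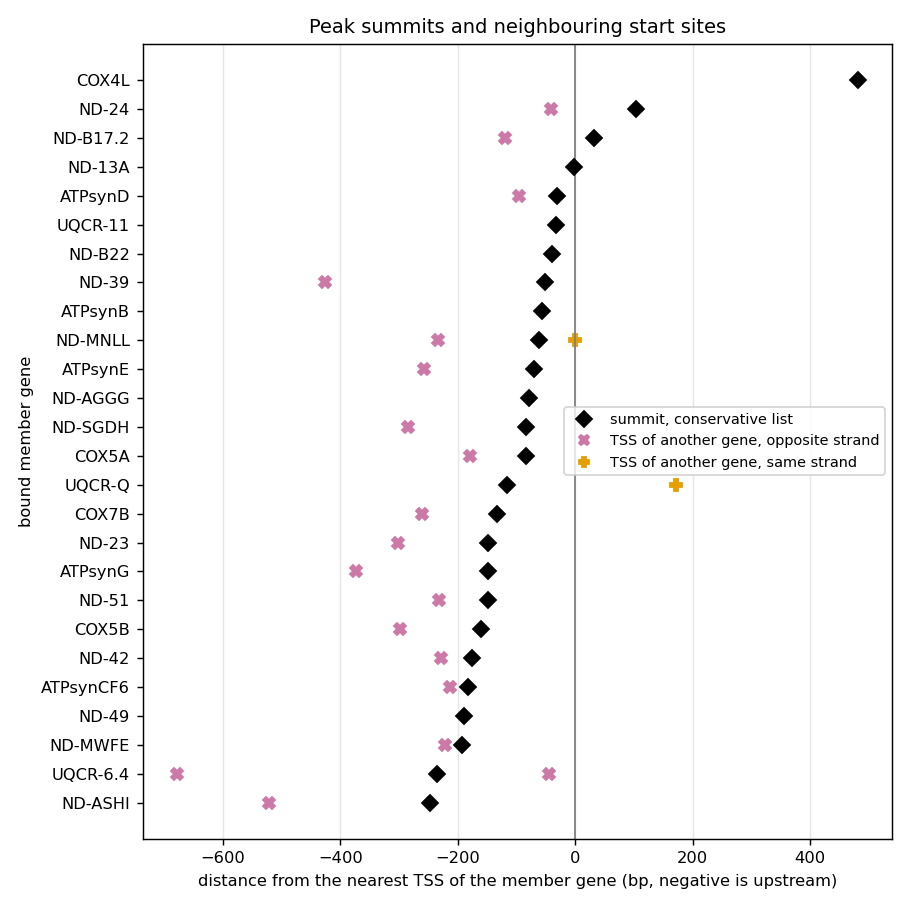
Distance in bp from the nearest TSS of each bound gene (x axis, negative is upstream) of its conservative-list summit (black diamond) and of the TSSs of other genes within 500 bp of that summit (coloured crosses, by strand), for the 26 bound genes (y axis). In 16 of the 18 genes with an opposite-strand neighbour the summit lies between both start sites; ND-24 and ND-B17.2 are the exceptions.

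Binding went with this head-to-head arrangement. Of the 80 genes, 38 have an opposite-strand TSS within 500 bp upstream (47.5%, against 29.5% of other protein-coding genes). In the conservative list 19 of these 38 were bound (50%), against 7 of the other 42 (16.7%). In the replicates' own lists the shares were 41.2% ± 6.62 and 4.76% ± 4.12 (SD, n = 3), a difference of 36.5 ± 7.39 points (two-sided exact sign-flip permutation test over 3 replicates, p = 0.25, the smallest possible). All 10 genes bound in every replicate were head-to-head, as were 56.7% of the 1828 other protein-coding genes bound in every replicate. The call credits a summit to every gene with a TSS within 500 bp, so a head-to-head gene can be called through its neighbour's peak. The neighbour's TSS was the nearer at ND-42, ND-51, ND-MWFE, UQCR-6.4, COX5B, COX7B and ATPsynCF6. How much of the difference comes from this way of calling was not tested.

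Only 2 of the 38 head-to-head genes are paralogs, so the same split was made within the main forms. There 19 of 36 head-to-head genes were bound in the conservative list (52.8%) and 6 of the other 27 (22.2%). In the replicates the difference was 37.3 ± 7.77 points (SD, n = 3; same exact test, p = 0.25). Other protein-coding genes showed the same direction, with 45.7% of 4096 head-to-head genes and 18.3% of 9769 others bound in the conservative list, and a replicate difference of 24.5 ± 3.74 points (SD, n = 3). Whether the difference is larger in the oxidative phosphorylation genes was not tested.

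**Figure D4:**
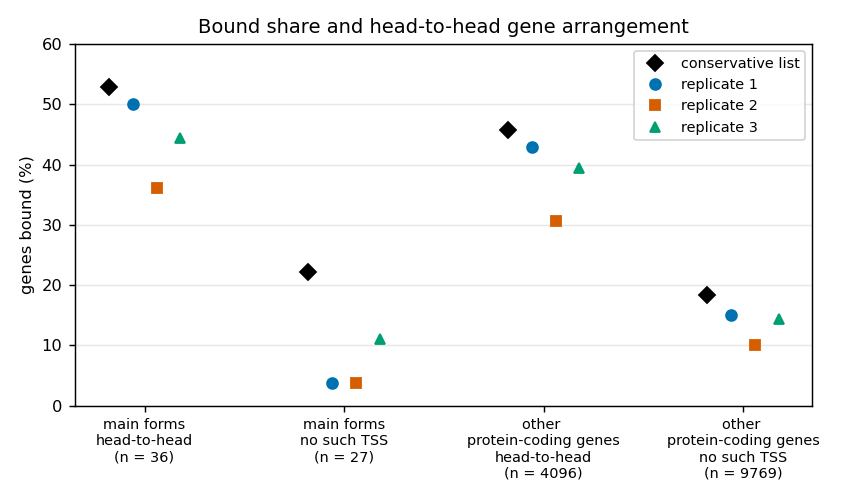
Percent of genes bound (y axis) among main forms and other protein-coding genes with and without an opposite-strand TSS within 500 bp upstream (x axis, with the number of genes), in the conservative list (black) and replicates 1, 2 and 3 (coloured). In both gene sets and all 4 lists the head-to-head genes lie above the others.

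The bases under the summits were richer in A and T than the flanks. Mean GC content 50 bp to each side of the 26 conservative summits was 30.7% (SD over peaks 9.51, range 10.9 to 47.5%), against 41.1% in windows 250 bp away, and 20 of the 26 summits were below their flanks. In the replicates' own lists the summits had 28.5% ± 1.36 and the flanks 44.9% ± 0.346 (SD, n = 3). All promoter peaks gave 31.7% ± 1.14 at summits and 42.2% ± 0.709 in flanks (SD, n = 3), so the dip was present over all promoter peaks too. The lowest summit GC content was at ATPsynG, with 10.9% against 40.6% in its flanks. The 6 summits above their flanks were those of COX4L, ND-13A, UQCR-6.4, UQCR-Q, ND-AGGG and ND-B22, each with a conservative signal of 193 or less.

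**Figure D5:**
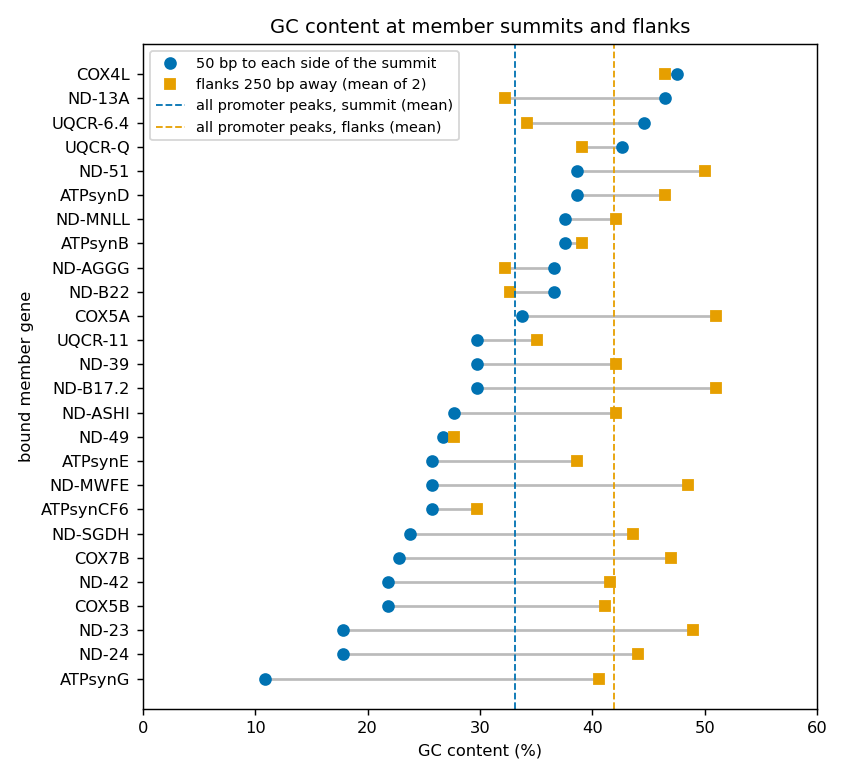
GC content in percent (x axis) in the 50 bp to each side of the conservative-list summit (blue circles) and as the mean of windows of the same length centred 250 bp to either side (orange squares) for the 26 bound genes (y axis); dashed lines are the means over all promoter peaks. The summit lies left of its flanks in 20 of 26 genes.

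Short sequence words were counted on both strands in promoters, from 250 bp before to 50 bp after the TSS, and within 50 bp of summits. The word GGTCACACT, the core of a known Drosophila core-promoter element called Ohler motif 1, was present in 16 of the 80 promoters (20.0%), against 5.87% of 13944 protein-coding promoters. It was in 8 of 26 bound promoters (30.8%) and in 8 of 54 unbound ones (14.8%), against 10.1% of all bound protein-coding promoters. None of the 26 summit windows held it, and 1.44% of all promoter summit windows did. The bound genes with the word are shown with 10 bases to each side, on the strand of the gene and with the match in capitals, which reads AGTGTGACC where the match is on the other strand.
ND-13A, chr2L:5100262-5100290, minus strand: ttaaataaccAGTGTGACCgctgatcggt
UQCR-Q, chr3L:17475068-17475096, plus strand: gcccgtccacGGTCACACTggttgagacg
COX5A, chr3R:11819313-11819341, plus strand: ttgaagatgcAGTGTGACCgcaattaaat
COX5B, chr2L:6557802-6557830, plus strand: actttaccgcGGTCACACTgatccatagc
COX7B, chr3L:17425476-17425504, plus strand: acaacacaacGGTCACACTgttcaacaca
ATPsynD, chr3R:19094884-19094912, plus strand: ggcagctgatAGTGTGACCgacccgaggg
The centre of the match lay 16 bp after the TSS at COX5B, 13 bp after it at COX7B and 33 bp after it at UQCR-Q. At ND-13A it lay 74 bp before the TSS. The matches at ND-MWFE and UQCR-6.4, also bound, are not printed.

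A/T words at the summits were more frequent than over all promoter peaks. TTANNTAA was in 8 of 26 summit windows (30.8%), against 15.1% of all promoter summit windows, TATAAA in 34.6% against 25.1%, and ATATTTTA in 11.5% against 5.97%. These words can overlap one another, their counts are 9 or fewer, and the shares were not adjusted for base composition. The DNA replication-related element TATCGATA was in 3.85% of summit windows against 3.36%, and in 10% of the 80 promoters against 8.94%. Among bound promoters it was in 2 of 26 (7.69%), below the 15.1% of all bound protein-coding promoters. GAGAG was in 22.5% of the 80 promoters against 30.3%, CAGCTG in 26.2% against 17.9%, CACGTG in 5% against 4.29% and TGCGCA in 5% against 7.04%.

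Of the 54 genes not bound in the conservative list, 23 (42.6%) had a peak within 500 bp in the ranked list from which it was drawn, where 24.3% of other unbound protein-coding genes did. The peaks of 21 of these failed the authors' IDR threshold of 0.01. The strongest were those of ATPsynbeta, with a signal of 154 and an IDR of 0.312, ND-20, a core complex I subunit, with 143 and 0.0125, and UQCR-14, with 131 and 0.0113. ATPsynO, the stalk subunit that binds the catalytic head, followed with 130 and 0.401, ND-MLRQ with 116 and 0.0122, and COX7C with 109 and 0.0421. The other 2 of the 23, COX7AL2 and ATPsynC, the proton-carrying ring subunit, passed the threshold without being in the conservative list. ATPsynC had a signal of 167 and an IDR of 0.00187. By distance, 3 genes had a nearest conservative summit beyond 500 bp but within 1000 bp of a TSS. They were ND-75, a core complex I subunit, at 754 bp with a signal of 185, UQCR-14 at 900 bp with 157, and UQCR-6.4L at 969 bp with 302.

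The wider pathway was looked at through 6 lists of genes around the electron transport chain, of which 49 of 50 names were found. In the conservative list 24 of these 49 genes (49.0%) were bound, beside 26.4% of protein-coding genes. The lists of replicates 1, 2 and 3 held 17, 13 and 15 of them, beside 23.2%, 16.2% and 21.8% of protein-coding genes. Of complex II, succinate dehydrogenase, 3 of 6 genes were bound, SdhC at 349, SdhB at 154 and SdhA at 102. SdhA was bound in no replicate's own list. Of carriers and subunits whose names fall outside the pattern, 7 of 10 were. They were Cyt-c-d at 674, the ATP synthase alpha subunit gene blw at 489, cype at 352, levy at 296, Cyt-c-p at 161, ox at 145 and sun at 77.5. Of these, Cyt-c-d, blw and cype were bound in all 3 replicates, and Cyt-c-p, ox and sun in no replicate's own list.

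Of assembly factors, 3 of 5 were bound, CIA30 of complex I at 697, Ccdc56 at 193 and Surf1 of complex IV at 99.2. Surf1 was bound in no replicate's own list. Of pyruvate dehydrogenase and citric acid cycle genes, 8 of 16 were bound, led by Idh3g at 765 and Fum1 at 520. The others were Ogdh at 362, muc at 209, ScsbetaA at 175, kdn at 167, Scsalpha1 at 136 and Pdhb at 110. Idh3g, Fum1 and Pdhb were bound in all 3 replicates, and kdn in no replicate's own list. Of genes for upkeep and expression of mitochondrial DNA, 2 of 8 were bound in the conservative list, mtSSB at 397 and mtTFB1 at 193, the latter through the peak it shares with Ccdc56. Of 4 regulators known to act on mitochondrial or metabolic genes, ERR, the estrogen-related receptor, was bound at 535, and at 204, 160 and 174 in replicates 1, 2 and 3. The regulators ewg, Ets97D and srl were bound in none of these lists.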

How the data were processed

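Peak lists of the 3 replicates and of the series were used. The authors mapped reads to dm6 and called peaks against a control library, per the deposited file listings. Which aligner and peak caller did so, and in which versions, is not given in the sources used here. The signal in the deposited lists is a score of unstated scale, so it was compared only within a list. The IDR was deposited by the authors as a −log10 value, and thresholded lists held values of 2 or more. The files give no counts, so depth is unknown, and replicates may differ in peak number through depth.

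Where an interval stood on several lines, only the line of highest signal was kept. Which replicates a series-level list compares was found by matching its recorded input intervals to the replicates' ranked lists. Genes, TSSs and exons came from Ensembl release 115 (BDGP6) and sequence from the RefSeq release 6 genome, and all genes and peaks ended inside their arms. A percentile is the percent of a list's peaks with a lower signal. Differences between gene sets were tested over replicates by a two-sided exact sign-flip permutation test. GC windows reached 50 bp to each side of a summit. The gene set, the lists, the motifs and the alternatives were chosen with earlier results of these data known. The head-to-head comparison was added after the files were seen. Every gene bound in the conservative list was named, as were genes bound in a replicate list alone and neighbours sharing a peak. Up to 6 genes with a ranked peak that failed the IDR were named by signal. COX7AL2 and ATPsynC were singled out after their values were seen. The binding call was tested on simulated peaks. Python 3.11.15, NumPy 2.4.6, pandas 2.3.3 and matplotlib 3.10.9 were used.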

Additional observations from a re-analysis of the deposited data

How the results depend on the processing

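Counts of bound genes followed the strictness and the replicates compared for a list. At an IDR of 0.001 the count of 26 became 17, in complex III 1 and in complex V 3. The share of all protein-coding genes bound went from 26.4% to 19.3%. Peaks found in all 3 replicates left 8 bound genes, with 5 in complex I, 0 in III, 2 in IV and 1 in V. They left 12.6% of protein-coding genes bound. The series-level lists that each compare a pair of replicates gave 13 to 26 genes. They had 7 to 14 in complex I, 1 to 3 in III, 3 to 4 in IV and 2 to 5 in V. The upper values are those of the conservative list itself, which compares replicates 1 and 3. All these lists derive from the alignments of all 3 replicates, so only the compared pair changes and no replicate is fully left out. The list comparing replicates 2 and 3 had 13, beside 16.2% of protein-coding genes, and that comparing replicates 1 and 2 had 15, beside 18.7%. Complex III had 5 bound genes with a limit of 1000 bp and 1 in the pooled list.

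Averaged over the replicates' own lists, the difference between the 80 genes and other protein-coding genes turned negative with a limit of 1000 bp, -0.185 points. It was also negative at an IDR of 0.001, -1.90 points. In conservative peaks found in all 3 replicates it was -2.65 points. Leaving 1 replicate's own list out of the average gave 0.910 to 2.24 points. The cause was not tested. Main forms minus paralogs kept its direction in all 12 alternatives, at 12.7 to 37.0 points, and so did the head-to-head difference in its 12, at 21.1 to 38.8 points. The signal ratio was between 0.896 and 1.07 in series-level lists. Those lists share peak signals, so their closeness is no separate check. In the replicates' own lists the ratio was 0.817 to 1.05. Summit GC was 32.5% in windows of 100 bp to each side, and 27.1% and 28.7% in the lists of replicates 1 and 3. No assembly factor matched the symbol pattern, so the alternative without them could not be run. No paired analysis was possible because there is only 1 group. Unknown depth limits any reading of a missing peak.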
